A study of Mus musculus with 8 samples.

Results

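Hub anchors are the acetylated stretches of the mouse embryonic stem cell genome that touched the largest number of other acetylated stretches. An anchor here is a run of touching 5-kb bins, and a loop is a pair of anchors with its number of sequenced read pairs. For each anchor, the distinct partner anchors were counted over loops with a total of 5 or more counts in the 8 libraries, and the 300 anchors with the most partners on the autosomes other than chromosome 11 were taken. Ties were resolved by summed counts and then by coordinates. The 300 hubs are 1.11% of the 27022 anchors on those chromosomes, of which 23113 had a partner, and the whole table holds 30044 anchors. The hubs were thus chosen by their partner numbers, which are given as a description.

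The counts come from HiChIP against histone H3 acetylated at lysine 27, a mark of active promoters and enhancers. In this assay crosslinked chromatin is cut, here with micrococcal nuclease, neighbouring ends are joined, and fragments that carry the mark are pulled down and sequenced as pairs. Each of 4 embryonic stem cell lines gave 2 libraries, labelled as technical replicates,. Line B6 (B6 5-1) has the genome of the inbred strain C57BL/6J and line D2 (D2 5-5) that of DBA/2J. Line B6-13D2 (QJ 6-1) is congenic, with a C57BL/6J genome that carries a DBA/2J interval of chromosome 13, and line D2-13B6 (XE 2-4) is its reciprocal, a DBA/2J genome with a C57BL/6J interval. For the latter interval the labels name 2 different end markers, whose positions did not enter any step here. All 4 lines grew in medium with 15% fetal bovine serum, leukemia inhibitory factor, the MEK inhibitor PD0325901 and the GSK3 inhibitor CHIR99021. Each genotype is represented by 1 line and the replicates are technical, so p-values measure the spread between technical libraries, and genotype and line cannot be told apart.

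Enhancers and promoters in mammalian nuclei meet in three-dimensional neighbourhoods, and a promoter can touch several enhancers as well as other promoters. Anchors that join many partners are often called hubs or highly interacting regions, and in stem cells such regions have been described around housekeeping genes and around genes of the pluripotency network. Contact frequency falls with genomic distance, so an anchor in a stretch crowded with other acetylated anchors has more candidates to touch. A wide anchor also collects more read pairs than a narrow one.

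The sequences below are examples from both kinds of hub in the set, those that hold promoters and those without an annotated start. Promoters come first. They are the 250 bases upstream of a RefSeq start (GRCm38.p6), written 5′ to 3′ on the strand of the gene, with every GC box (GGGCGG or its reverse complement CCGCCC, overlapping matches included) in capitals. Actn4, which encodes the actin cross-linker alpha-actinin 4, lies in the hub with the most partners (chr7:28962333-28962582, minus strand). Myh9 encodes a non-muscle myosin heavy chain (chr15:77842176-77842425, minus strand). Klf2 (chr8:72318812-72319061, plus strand) and Pou5f1 (chr17:35505782-35506031, plus strand) encode transcription factors of naive and general pluripotency. Tet1 encodes an enzyme that oxidises methylated cytosine (chr10:62887325-62887574, minus strand). Glo1 encodes glyoxalase 1, which detoxifies methylglyoxal, and its hub differed most between backgrounds (chr17:30612660-30612909, minus strand).
Actn4: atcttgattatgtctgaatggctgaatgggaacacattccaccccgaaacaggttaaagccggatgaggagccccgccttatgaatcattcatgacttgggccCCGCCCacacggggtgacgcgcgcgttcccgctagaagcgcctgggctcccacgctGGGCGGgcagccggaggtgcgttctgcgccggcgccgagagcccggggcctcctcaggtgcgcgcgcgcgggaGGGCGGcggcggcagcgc
Myh9: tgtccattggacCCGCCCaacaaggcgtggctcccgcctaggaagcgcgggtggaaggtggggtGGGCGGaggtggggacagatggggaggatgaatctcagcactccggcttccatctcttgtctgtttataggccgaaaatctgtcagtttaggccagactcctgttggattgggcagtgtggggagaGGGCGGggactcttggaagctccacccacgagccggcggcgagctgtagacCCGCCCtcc
Klf2: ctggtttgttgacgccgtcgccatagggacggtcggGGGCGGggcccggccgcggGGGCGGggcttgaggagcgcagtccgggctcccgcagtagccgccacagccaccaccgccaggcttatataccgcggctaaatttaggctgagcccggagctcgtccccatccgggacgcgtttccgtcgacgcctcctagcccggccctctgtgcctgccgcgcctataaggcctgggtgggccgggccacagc
Pou5f1: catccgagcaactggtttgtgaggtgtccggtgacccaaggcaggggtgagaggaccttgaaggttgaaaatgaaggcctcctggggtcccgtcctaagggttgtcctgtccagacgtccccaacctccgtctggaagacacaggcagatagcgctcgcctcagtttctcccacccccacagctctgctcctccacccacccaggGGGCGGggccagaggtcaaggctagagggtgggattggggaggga
Tet1: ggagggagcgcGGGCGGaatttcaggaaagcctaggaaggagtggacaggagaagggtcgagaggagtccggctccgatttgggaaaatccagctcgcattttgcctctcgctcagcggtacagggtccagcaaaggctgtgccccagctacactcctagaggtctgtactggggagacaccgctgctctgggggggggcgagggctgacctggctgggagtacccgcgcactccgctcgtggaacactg
Glo1: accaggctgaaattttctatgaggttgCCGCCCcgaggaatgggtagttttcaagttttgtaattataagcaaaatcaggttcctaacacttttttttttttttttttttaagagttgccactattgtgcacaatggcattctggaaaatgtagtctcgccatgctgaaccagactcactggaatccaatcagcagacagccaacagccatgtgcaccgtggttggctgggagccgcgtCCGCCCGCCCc
The Actn4 stretch has 29 CpG dinucleotides and 3 GC boxes, the Klf2 stretch 29 and 2, and the Glo1 stretch 8 and 3. Of the starts shown, only that of Glo1 lies in the 5-kb bin with the most contacts of its hub. A GC box was present in 54.6% of the 623 RefSeq promoters inside hubs, in 53.3% of the 10885 promoters inside other anchors and in 32.7% of all 32851 promoters of this length. Median GC content of these promoters was 58.0% in hubs, 58.8% in other anchors and 52.4% over all.

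The following windows come from hubs that hold no annotated gene start, in the 5-kb bin with the most contacts, and show in capitals a match to the binding letters of the nuclear receptor ESRRB (TCAAGGTCA or TGACCTTGA, both strands). They are plus-strand GRCm38 sequence from chr2:153614386-153614466 in the body of Commd7, chr7:29404305-29404385 in the body of Sipa1l3 and chr3:89862581-89862661 in the body of Il6ra.
Commd7 body: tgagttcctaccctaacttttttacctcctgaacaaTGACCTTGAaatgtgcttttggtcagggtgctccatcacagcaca
Sipa1l3 body: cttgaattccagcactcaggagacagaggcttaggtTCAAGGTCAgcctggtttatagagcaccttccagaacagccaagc
Il6ra body: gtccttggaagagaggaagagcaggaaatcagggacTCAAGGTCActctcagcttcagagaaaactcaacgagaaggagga
The match in the body of Sipa1l3 lies in sequence that the reference marks as repetitive, and the other two do not. Of the 15 hubs without a start, 3 had such a match in this bin (20%), against 21.5% of all 2423 hub bins and 15.2% of 42247 bins of other anchors with a partner. Outside repeats the shares were 8.71% of hub bins and 7.25% of bins of other anchors. A match to these letters is a description of the sequence and not a measured binding site.

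Partner numbers ran from 44 to 111 with a median of 51, against a median of 8 for the other 22813 anchors with a partner. The hub with the most partners, 111, spans chr7:28915001-28985000 and holds the starts of Actn4, Eif3k (a subunit of a translation initiation factor) and Map4k1 (a kinase). The second, with 93, spans chr2:31055001-31145000 around Fnbp1, a regulator of membrane curvature. The third lies beside the first at chr7:28790001-28830000, has 86 partners and holds Ech1, Hnrnpl and Rinl. Next came the hubs of Cdc25a and Map4 (80 partners), Myh9 (76) and, among further ones, Rbm14, Rbm4 and Rbm4b (74). Hubs with 73 partners held Hspb1 with Ywhag, Cbfa2t2, Cct3 with Smg5, and Gpatch3 with Sfn, and the hub of Cdkn1a and Srsf3 had 72. These genes encode cell cycle regulators (Cdc25a, Cdkn1a), cytoskeletal proteins (Actn4, Map4, Myh9), RNA-binding proteins (Hnrnpl, Rbm14, Srsf3) and a chaperonin subunit (Cct3).

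At the limit of the rule, 32 anchors had 44 partners and 21 of them were hubs by their counts. Just inside lay the anchors of Asna1, Tnpo2 and Trir on chromosome 8 (3459 counts), Prx on chromosome 7 (2963 counts) and Cdc42se1, Gabpb2 and Mllt11 on chromosome 3 (2926 counts). Just outside, with the same 44 partners, lay those of Ehd1 on chromosome 19 (2751 counts), Srpk1 on chromosome 17 (2409 counts) and Depdc5 and Prr14l on chromosome 5 (2364 counts). With loops of 3 or more counts 252 of the 300 hubs were chosen again, and with loops of 10 or more counts 240. The rule applied to the 4 B6-background libraries alone gave 236 of the hubs and to the 4 D2-background libraries alone 251. Those 2 lists of 300 shared 240 anchors, 80% of each.

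**Figure D1:**
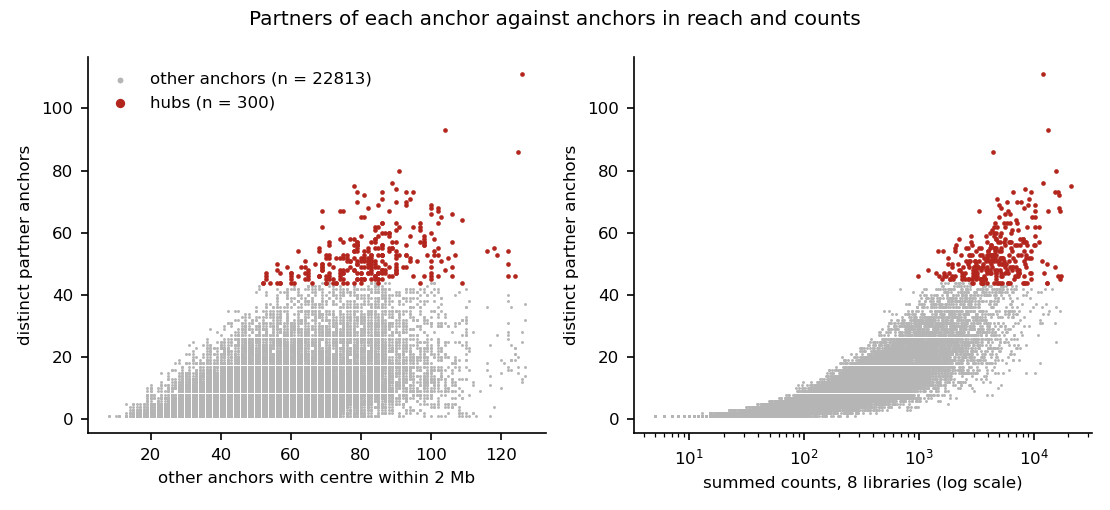
Each point is 1 of 23113 anchors with a partner, with its number of distinct partners (y axis) against the number of anchors with a centre within 2 Mb (left) and against its summed counts in the 8 libraries on a log scale (right). The 300 hubs (red) have 44 or more partners and between 52 and 126 anchors in reach.

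Hubs were wide and lay among many other anchors. Their median width was 35 kb, against 5 kb for the other anchors with a partner and 20 kb for the 2667 other anchors with at least the 983 counts of the least counted hub. The median hub had 83 anchors with centres within 2 Mb, against 54 and 60 in those sets. The number of partners, on which the rule chose, had a median of 63.9% of this number, against 14.3% and 40.7%. A partner can also lie beyond 2 Mb. Median summed counts were 4730 in hubs, 194 in other anchors and 1642 in the 2667 well counted anchors. Among the 300 hubs, the number of partners had a Spearman correlation of 0.41 with the anchors in reach, 0.35 with counts and 0.29 with width, and these measures share the same counts and bins. A rule on partners per 5-kb bin kept 2 of the 300 hubs.

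The hubs were uneven over chromosomes. Chromosome 4 held 39, chromosome 7 held 35 and chromosomes 2 and 17 held 26 each, while chromosome 12 held 3, chromosome 13 held 2 and chromosome 14 held 1. Per 1000 anchors this is 20.5 hubs on chromosome 4, 19.7 on chromosome 7 and 20.7 on chromosome 17, against 1.40 on chromosome 13. The hubs of chromosome 13 were the Jarid2 hub at chr13:44665001-44760000, with 54 partners, and a hub at chr13:97575001-97625000 with 45.

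Most hubs held promoters. A protein-coding start lay in 268 of 300 hubs (89.3%), against 37.9% of the other anchors and 67.0% of the well counted anchors. More than 1 protein-coding gene started in 132 hubs (44.0%). Per length the difference was absent or reversed, with 0.437 protein-coding genes starting per 10 kb in hubs, 0.5 in other anchors and 0.435 in well counted anchors. Median GC content was 47.1% in hubs, 44.5% in other anchors and 45.2% in well counted anchors. The bin with the most contacts held a median of 17.7% of a hub's counts. This bin held a protein-coding start in 125 of the 268 hubs with such a start (46.6%). Of all bins of these hubs, 34.0% held one. Both shares count bins and not contacts, and whether the contacts of a hub gather in bins with a start was not tested.

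Motif letters differed in density between the sets. Outside repeats, ESRRB letters occurred 0.272 times per 10 kb in hubs, 0.221 in other anchors and 0.238 in well counted anchors. The octamer ATTTGCAT, bound by POU factors, occurred 0.434 times per 10 kb in hubs, 0.606 in other anchors and 0.556 in well counted anchors. The CTCF motif occurred 0.120, 0.0927 and 0.101 times per 10 kb, and the GC box 4.17, 3.4 and 3.35 times. Hubs also had the highest median GC content of these sets, and its part in the densities was not tested.

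The 15 hubs without any annotated start had 44 to 62 partners. The one with the most, 62, spans chr2:119825001-119865000, lies outside gene bodies and is 14.2 kb from the nearest protein-coding start, that of the receptor kinase gene Tyro3. Others at chr4:133895001-133915000 (60 partners, nearest start Rps6ka1 at 7.20 kb) and chr1:135170001-135220000 (58 partners, nearest start Gpr37l1 at 2.32 kb) also lay outside gene bodies. The hubs at chr4:135225001-135255000 (59 partners) and chr16:32285001-32325000 (57 partners) lay in the bodies of Clic4 and Rnf168. A pair of these hubs lay in the body of Sipa1l3 on chromosome 7, with 55 and 53 partners.

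Hub loops were long. The 15086 loops of 5 or more counts that touch a hub had a median span of 605 kb, and 57.1% spanned 500 kb or more. The 105932 such loops that touch no hub had a median span of 192 kb, and 21.6% spanned 500 kb or more. The rule chose on partner number, so these spans are a description. In hub loops, 56.7% had a protein-coding start at both ends, against 30.1% of loops without a hub. The hubs reached 5364 distinct partner anchors, and 2123 of these touched a single hub.

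Hubs were joined to each other. Of the 908 pairs of hubs with centres within 2 Mb, 897 were joined by a loop (98.8%), and 900 loops joined hubs in all. These linked 276 of the hubs into 46 groups and left 24 joined to no other hub. The hubs were chosen by partner number over these same loops, so the share of joined pairs is a description. It was not computed for pairs of other anchors. The largest group, of 32 hubs and 225 loops, covered 9.68 Mb of chromosome 4 (chr4:126935001-136610000) and included Arid1a, Kdm1a and Hnrnpr. A group of 20 hubs on chromosome 17 (chr17:24945001-35900000) included Pou5f1, Cdkn1a, Pim1, Daxx and Glo1. A group of 18 hubs on chromosome 7 (chr7:27160001-30205000) held Actn4, Ech1, Akt2, Dyrk1b and several zinc finger genes, and 123 of its 153 pairs were joined. In that group a loop had a median of 25 counts and at most 1808, and 18 loops had 100 or more.

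**Figure D2:**
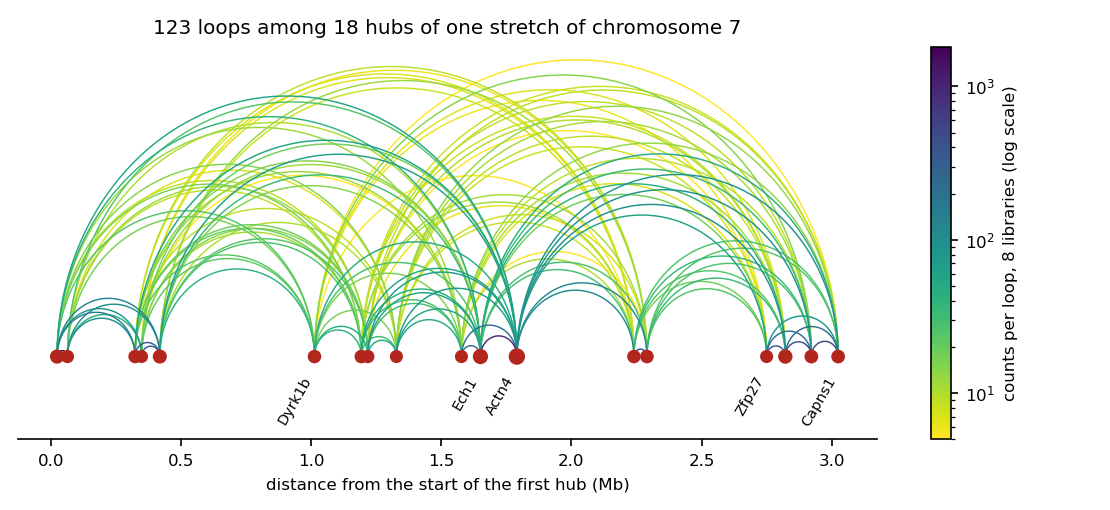
Arcs are the 123 loops of 5 or more counts among the 18 hubs of the chromosome 7 group, coloured by counts over the 8 libraries on a log scale, and points are hub centres along the distance from the start of the first hub. The loop between the neighbouring hubs of Egln2 and Coq8b has the highest count, 1808, and arcs reach across 2 Mb.

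The strongest loops between hubs joined close neighbours. The loop between the hub of Gm44131, Gm6728 and Rpl36a-ps3 and the hub of Atf7ip on chromosome 6, which are 55 kb apart, had 392 and 360 CPM in the B6 libraries, 482 and 511 in D2, 436 and 407 in B6-13D2 and 551 and 674 in D2-13B6. CPM is a library's counts scaled to a common total with TMM factors. Neighbouring hubs within Enah, a regulator of actin growth, had mean CPM of 397 and 429 in the parental lines B6 and D2, and of 509 and 450 in the congenic lines B6-13D2 and D2-13B6.

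Genes of stem cell identity were present among the hubs in a minority. Of 39 pluripotency genes listed here with a start in an anchor, 7 lay in hubs (17.9%), against 5.26% of the 9883 protein-coding genes with a start in an anchor. They were Esrrb, Etv5, Jarid2, Klf2, Pou5f1, Sall4 and Tet1, with 44 to 59 partners. The Esrrb hub holds an alternative start annotated by GENCODE and not the RefSeq start. Of 21 signalling genes, Ccnd3, Cdkn1a, Nodal and Pim1 were in hubs, with Ccnd3 in a pair of them. Among genes of chromatin architecture and coactivation, Arid1a and Ldb1 were in hubs. Ribosomal protein genes gave 8 of 70 and microRNA genes 15 of 245 (6.12%). Of 70 genes matched by the histone symbols, 8 were in hubs, of which 7 lay in the Hist2 cluster on chromosome 3 and 1 was H2afx, which is not replication-dependent. The listed genes were chosen with earlier results of these data known, and the part of anchor width in these shares was not tested. Among cell type markers, all 8 embryonic stem cell genes had an anchor at a start, with summed levels of 3471 to 4271 CPM in the libraries and Pou5f1 and Esrrb in hubs. Of 8 fibroblast markers 1, Col1a2, had one, with 32.5 and 36.5 CPM in D2 against 16.2 to 21.0 in the other 6 libraries, and its part in differences of the D2 line was not tested. Of 6 neural markers Nes alone had one (18.9 to 32.6 CPM), and the endoderm, mesoderm and trophoblast markers, 6 each, had none. The CPM of these cell type markers is on library totals, without TMM factors.

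Library totals ran from 737955 to 1425304 counts, and both congenic lines were deeper than both parental lines. The D2-13B6 libraries stood apart on chromosome 11, which took 13.9% to 14% of their counts against 10.1% to 10.6% in the other 6 libraries. Hubs on that chromosome are outside the rule. Between the technical replicates, hub counts differed by more than sampling noise in every line, and chi-square per degree of freedom over the 300 hubs was 2.84 (B6), 1.42 (D2), 3.37 (B6-13D2) and 1.73 (D2-13B6). No replicates were merged.

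Hubs took about the same share of contacts in every library. In B6, 21.1% and 19.1% of the counts on the chromosomes used touched a hub, in D2 19.8% and 19.8%, in B6-13D2 20.2% and 21.7%, and in D2-13B6 22% and 22.5%. The D2-13B6 libraries were the highest and the lowest was a B6 library. The difference between parental and congenic lines was -1.67 percentage points (exact permutation test, two-sided, 4 against 4 libraries, p = 0.0571, adjusted over 15 tests 0.286). Contacts inside the hub made up 43.4% and 40.8% of hub counts in B6, 41.0% and 42.4% in D2, 44.7% and 45.4% in B6-13D2, and 44.7% and 44.6% in D2-13B6. Every congenic library was above every parental one, by a mean of 2.93 percentage points. The 4 libraries of each side are 2 technical libraries of each of 2 lines, so the permutation treats as exchangeable libraries that share a line. It gave the smallest p that 4 against 4 libraries allow in an exact permutation test, 0.0286, which is 0.214 after adjustment. In all other anchors this share moved alike, from 27.4% ± 1.0 (SD, n = 2) and 27.5% ± 0.99 in the parental lines to 29.9% ± 0.31 and 29.9% ± 0.15 in the congenic ones. Loops between hubs took 15.8% ± 0.51 (SD, n = 2) and 15.9% ± 0.16 of the hubs' partner counts in the parental lines B6 and D2, and 16.5% ± 0.20 and 16.8% ± 0.48 in the congenic lines B6-13D2 and D2-13B6, with the same exact permutation p of 0.0286 for parental against congenic lines and 0.214 after adjustment. Of the 15 tests none passed after adjustment. Depth moves with the parental and congenic lines, and its part in these shares was not tested.

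**Figure D3:**
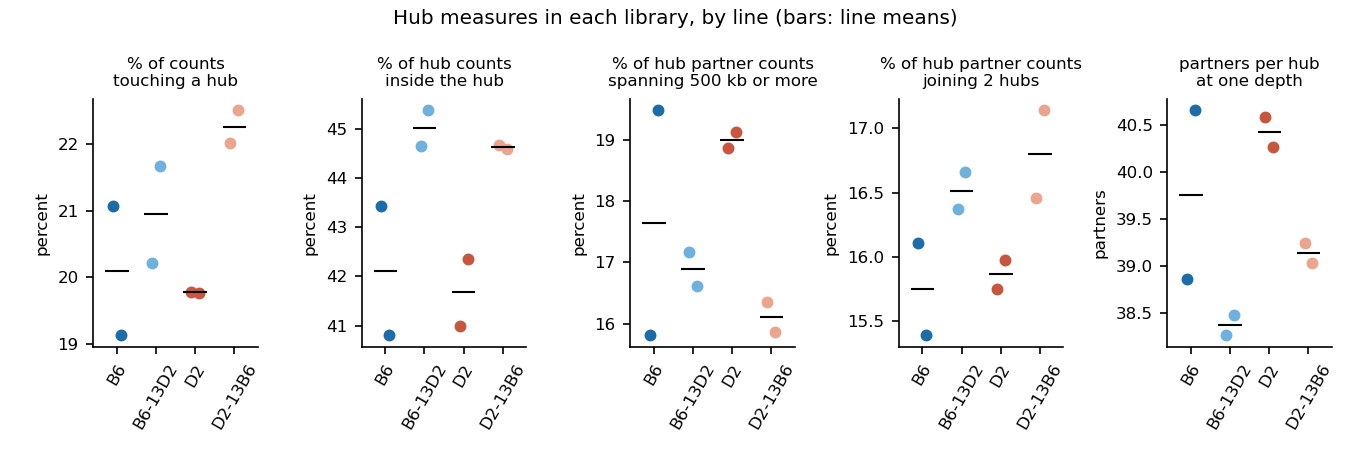
Points are the 2 libraries of each line and bars are line means, for 5 measures of the hubs in percent or, on the right, in partners per hub. The y axes do not start at 0. Contacts inside hubs and between hubs are higher in all 4 congenic libraries than in all 4 parental ones.

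At one common depth of 654054 counts, a hub had an expected mean of 38.9 and 40.7 partners in the B6 libraries, 40.6 and 40.3 in D2, 38.3 and 38.5 in B6-13D2, and 39.2 and 39.0 in D2-13B6. One B6 library lay among the congenic ones. Parental lines exceeded congenic lines by 1.34 partners (exact permutation p = 0.0857, adjusted 0.321), and without thinning the difference was -3.58 partners. The rule chose the hubs on partner number in the same libraries, so no conclusion is drawn from this test. In all other anchors with a partner the thinned mean moved alike. It was 6.90 in B6 and 6.92 in D2, against 6.49 in B6-13D2 and 6.52 in D2-13B6. Partner counts of 500 kb or more made up 15.8% and 19.5% of hub partner counts in B6, 18.9% and 19.1% in D2, 17.2% and 16.6% in B6-13D2 and 16.4% and 15.9% in D2-13B6. The spread between the B6 libraries was as wide as the whole range over lines.

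The hubs' contact levels were compared between lines with the summed counts of all loops touching an anchor, in a fit over 21211 anchors that included all 300 hubs. FDR is the Benjamini-Hochberg adjusted p of edgeR's quasi-likelihood test over all tested anchors, and an anchor with an FDR under 0.05 is called. The background effect, D2 minus B6 genome averaged over both alleles of the interval, was called at 98 hubs (32.7%), 49 higher and 49 lower in D2 background. Of all tested anchors 24.8% were called, of those off chromosomes 11, X and Y 23.9%, and of the well counted anchors that are not hubs 41.3%. The median absolute log2 fold change was 0.14 in hubs and 0.19 in those well counted anchors. In 52 hubs (17.3%) the 4 libraries of one background did not overlap the 4 of the other, against 17.7% of all tested anchors and 26.9% of the well counted ones. The share of hubs called was thus above that of all anchors and below that of the well counted anchors, whose median counts are lower than those of hubs. Reads of the D2 genome were mapped to a C57BL/6J reference build, and the part of mapping in these differences was not tested.

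The largest difference by background was at the Glo1 hub (chr17:30590001-30615000, 46 partners). It had 246 and 211 CPM in B6, 272 and 327 in B6-13D2, 530 and 542 in D2, and 644 and 625 in D2-13B6. All D2-background libraries were above all B6-background libraries, with a log2 fold change of 1.15 (SE 0.084, FDR 1.95e-21). DBA/2J is among the inbred strains known to carry a duplication that includes Glo1, and a change in copy number and a change in contacts per copy cannot be told apart in these counts. Of 6 other tested anchors within 250 kb, 2 were called higher and 0 lower in D2 background, and within 1 Mb 3 of 33 were higher and 7 lower. The loop from this hub to the neighbouring anchor with starts of Dnah8 and Glo1, 27.5 kb away, had 70.0 and 65.1 CPM in B6, 103 and 93.8 in B6-13D2, 182 and 184 in D2 and 217 and 193 in D2-13B6 (log2 fold change 1.25, FDR 1.93e-23). A loop between a hub and a neighbouring anchor counts in the sums of both. Calls at tested anchors near a hub, here and below, thus share counts with the hub and are not independent of it.

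The other hubs higher in D2 background that the rule for naming took were those of Cep55 and Myof, Fam13b, Blm, and Hnrnpr. The Cep55 hub, named for a protein of the final cut between daughter cells, had 616 and 631 CPM in B6, 591 and 568 in B6-13D2, 888 and 1015 in D2 and 922 and 949 in D2-13B6. Its log2 fold change was 0.65 (SE 0.075, FDR 1.04e-11), and of 9 tested anchors within 250 kb 4 were called higher and 0 lower. The Fam13b hub on chromosome 18 rose by 0.79 (SE 0.094, FDR 2.57e-11), and 5 of its 13 tested partner loops were called higher in D2 background, with 0 lower. The hub of Blm, a RecQ helicase, had 313 and 294 CPM in B6, 213 and 217 in B6-13D2, 354 and 343 in D2 and 491 and 521 in D2-13B6. It rose with the D2 background (log2 fold change 0.72, FDR 2.81e-11) and fell with the D2 allele of the interval (-0.52, FDR 7.35e-06). The decrease in B6 background (-0.50, FDR 0.00733) lost its call without B6 replicate 1 (-0.45), without B6-13D2 replicate 1 (-0.49) or without contacts inside the anchor (-0.40). Of 9 tested anchors within 250 kb, 0 were called higher and 2 lower in D2 background. The hub of Hnrnpr, an RNA-binding protein gene, rose by 0.66 (SE 0.084, FDR 2.89e-10), and its loop to the anchor of Zfp46, 22.5 kb away, by 1.27 (FDR 3.02e-20).

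Hubs lower in D2 background included that of Acacb, which encodes a mitochondrial acetyl-CoA carboxylase. Its hub (chr5:114170001-114195000) holds an alternative GENCODE start and had 283 and 233 CPM in B6, 224 and 273 in B6-13D2, 137 and 127 in D2 and 134 and 129 in D2-13B6. The backgrounds did not overlap, and the log2 fold change was -0.95 (SE 0.099, FDR 1.32e-13). Of 12 tested anchors within 250 kb, 5 were called lower and 0 higher. Contacts inside this hub fell from 83.8 ± 3.9 CPM (SD, n = 2) in B6 and 68.1 ± 6.0 in B6-13D2 to 29.7 ± 0.35 and 28.3 ± 1.8 in the D2-background lines D2 and D2-13B6 (log2 fold change -1.39, FDR 1.89e-14). The hub of Nfatc4 and Nynrin, the single hub on chromosome 14, fell by 0.68 (SE 0.079, FDR 9.12e-12), and by 0.33 when contacts inside the anchor were left out. The hub of the zinc finger genes Zfp27 and Zfp383 in the chromosome 7 group fell by 0.66 (SE 0.084, FDR 4.29e-10), and 10 of 16 tested anchors within 250 kb of it were called lower with 0 higher. The hub of Rpl28, Tmem238 and Ube2s fell by 0.61 (SE 0.080, FDR 1.25e-09) and that of Rnf220, a ubiquitin ligase gene, by 0.60 (SE 0.079, FDR 1.41e-09).

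**Figure D4:**
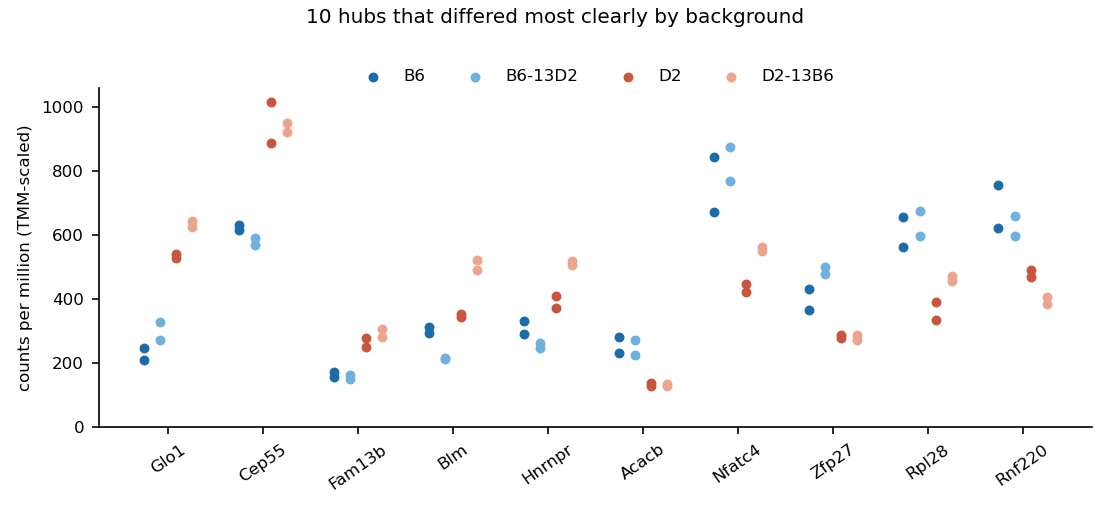
Points are the CPM (TMM-scaled) of each of the 8 libraries at the 10 hubs named for the background effect, labelled by their first gene and coloured by line. At the first 5 hubs all D2-background libraries lie above all B6-background libraries, and at the last 5 below.

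The background effect was also tested at single loops, which have far fewer counts than whole hubs. Of 5774 tested hub loops, 311 were called for the background (5.39%), 155 higher and 156 lower, against 8.85% of all 44706 tested loops. Contacts inside the hub, which have the most counts (median 178 CPM), were called in 79 of 300 (26.3%). Loops between hubs (median 8.04 CPM) were called in 27 of 635 and loops to other anchors (median 6.40 CPM) in 205 of 4839. At least 1 partner loop was called at 145 hubs, namely 75 of the 98 hubs called themselves and 70 hubs that were not called. The level of a hub includes the counts of its partner loops, so these calls are not independent. The number of called hub loops was 204 without D2 replicate 1, 96 with DESeq2 and 106 without a count filter. The most called partner loops at a hub was 6, all higher in D2 background, at the Cdkn1a hub, where the log2 fold change of the whole hub was 0.19 (FDR 0.0418). A long loop on chromosome 1, from the hub of Gm29283, Gm37162 and Gm5250 to an anchor 542 kb away, had 4 and 2 counts in B6, 2 and 0 in B6-13D2, 18 and 36 in D2 and 25 and 30 in D2-13B6 (FDR 2.02e-19).

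The interval effect, D2 minus B6 allele of the chromosome 13 interval averaged over both backgrounds, was called at 22 hubs (7.33%), 3 higher and 19 lower with the D2 allele, against 6.25% of all tested anchors, 5.15% of those off chromosomes 11, X and Y (2.02% lower) and 13.2% of the well counted ones (5.02% lower). With the abundance trend removed it was 38 hubs, 16 higher and 22 lower, and with library totals alone 33, 10 higher and 23 lower. In 6 hubs the 4 libraries of one allele did not overlap the 4 of the other (2.00%, against 4.79% of all tested anchors). The number depended on single libraries and ran from 5 to 52 when 1 library was left out, with 5 without D2 replicate 1, 7 without B6 replicate 1, D2 replicate 2 or D2-13B6 replicate 2, 9 without B6-13D2 replicate 1, 12 without D2-13B6 replicate 1, 34 without B6-13D2 replicate 2 and 52 without B6 replicate 2. None of the 22 called hubs is shown here to act through the interval, since each allele was carried by 1 line in each background.

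The clearest was the hub at chr7:29440001-29460000, in the body of Sipa1l3, a gene of a Rap GTPase regulator family, which holds no start and lies 45.5 kb from the nearest one. It had 360 and 338 CPM in B6, 199 and 258 in B6-13D2, 254 and 268 in D2 and 365 and 391 in D2-13B6. All libraries with the D2 allele were below all with the B6 allele, by a log2 fold change of -0.57 (SE 0.088, FDR 2.20e-06). The difference was -0.60 in B6 background (FDR 0.000812) and -0.53 in D2 background (FDR 0.00187), and these values differed by 0.066 (SE 0.18, interaction FDR 0.896). Of 16 tested anchors within 250 kb, 5 were called lower and 1 higher. Without D2 replicate 1 and in the other alternatives the interval effect at this hub stayed called, with values from -0.67 to -0.49. Of its 2 within-background differences, that in B6 background lost its call without B6-13D2 replicate 1 (-0.44). The averaged effect was also called lower at the hub at chr18:38365001-38390000 without a start (-0.40, FDR 0.000511), at that of Cnbp, a nucleic acid binding protein gene, and Isy1 (-0.34, FDR 0.00650), and at that of the transcript 2410024N13Rik on chromosome 3 (-0.28, FDR 0.0133). At the chromosome 18 hub the difference was -0.66 in D2 background (FDR 1.76e-05) and -0.14 in B6 background (FDR 0.578), with an interaction FDR of 0.0431. At 2410024N13Rik it was -0.52 (FDR 0.000299) and -0.029 (FDR 0.924), with an interaction FDR of 0.0354. The Cnbp hub had -0.44 in D2 background (FDR 0.0113) and -0.24 in B6 background (FDR 0.278). The loop of the Cnbp hub to an anchor 25 kb away had 162 and 125 CPM in B6, 88.6 and 87.1 in B6-13D2, 73.1 and 80.8 in D2 and 144 and 153 in D2-13B6 (log2 fold change -0.84, FDR 2.23e-08). The hub of Rbfox2, a splicing factor gene, was called higher in the average, and in B6 background (0.45, FDR 0.00418) but not in D2 background (0.14, FDR 0.558, interaction FDR 0.264), with 581 and 503 CPM in B6, 728 and 761 in B6-13D2, 633 and 610 in D2 and 561 and 569 in D2-13B6 (0.30, FDR 0.00863). The calls at the Rbfox2, Cnbp and 2410024N13Rik hubs were lost under several alternatives. The Rbfox2 hub was no longer called without D2 replicate 1 (0.28) or either D2-13B6 replicate (0.29 in both). The Cnbp hub was not called without B6 replicate 1 (-0.25), D2 replicate 1 (-0.33) or D2-13B6 replicate 2 (-0.30), nor the 2410024N13Rik hub without either D2 replicate, B6-13D2 replicate 1 or D2-13B6 replicate 2 (-0.28 to -0.23), or without contacts inside the anchor (-0.24). Of the tested hub loops, 24 were called for the interval (0.416%, 5 higher and 19 lower), against 0.989% of all tested loops, and 6 to 11 without any 1 library other than B6 replicate 2 or B6-13D2 replicate 2.

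Within B6 background, 38 hubs were called between B6-13D2 and B6 (12.7%), 36 higher and 2 lower in the congenic line, against 5.22% of all tested anchors, 5.21% of those off chromosomes 11, X and Y (3.37% higher) and 16.9% of the well counted anchors (14.4% higher). Within D2 background, 83 hubs were called between D2 and D2-13B6 (27.7%), all lower in D2, against 5.84% of all tested anchors, 3.71% of those off chromosomes 11, X and Y (2.11% lower) and 10.3% of the well counted anchors (8.62% lower). Nearly all of these called hubs were thus higher in the congenic line than in its parental line. The interaction, the effect of the D2 allele within the D2 background less its effect within the B6 background, was called at 97 hubs, all negative (32.3%, against 4.79% of all tested anchors, 3.66% of those off chromosomes 11, X and Y, 2.5% negative there, and 12.5% of the well counted anchors, 11.7% negative). Its median over the 300 hubs was -0.36, against 0.03 over all tested anchors and -0.23 over the well counted ones.

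These counts rested on how the libraries were scaled. When the trend of the log ratio on abundance was removed from each library, the hub median of D2 minus D2-13B6 went from -0.24 to 0.02 and that of the interaction from -0.36 to 0.06, and the calls fell to 29 (18 higher, 11 lower) and 17 (11 higher, 6 lower). The median of B6-13D2 minus B6 went from 0.13 to -0.06, with 22 calls (9 higher, 13 lower). With library totals alone the calls were 27 (20 higher, 7 lower) for B6-13D2 minus B6, 41 (5 higher) for D2 minus D2-13B6 and 26 (3 higher) for the interaction. For D2 minus D2-13B6 and the interaction, leaving out D2 replicate 1 left 11 and 21 calls, D2 replicate 2 left 23 and 56, D2-13B6 replicate 1 left 46 and 56, and D2-13B6 replicate 2 left 17 and 28. The interaction had 48 calls without B6 replicate 2 and 36 without B6-13D2 replicate 2. For B6-13D2 minus B6, 22 calls were left without B6 replicate 2, 20 without B6-13D2 replicate 1 and 17 without B6-13D2 replicate 2. Hubs are among the best counted anchors and the congenic libraries are the deepest, so a shift of all hubs and the scaling of abundant anchors cannot be told apart.

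**Figure D5:**
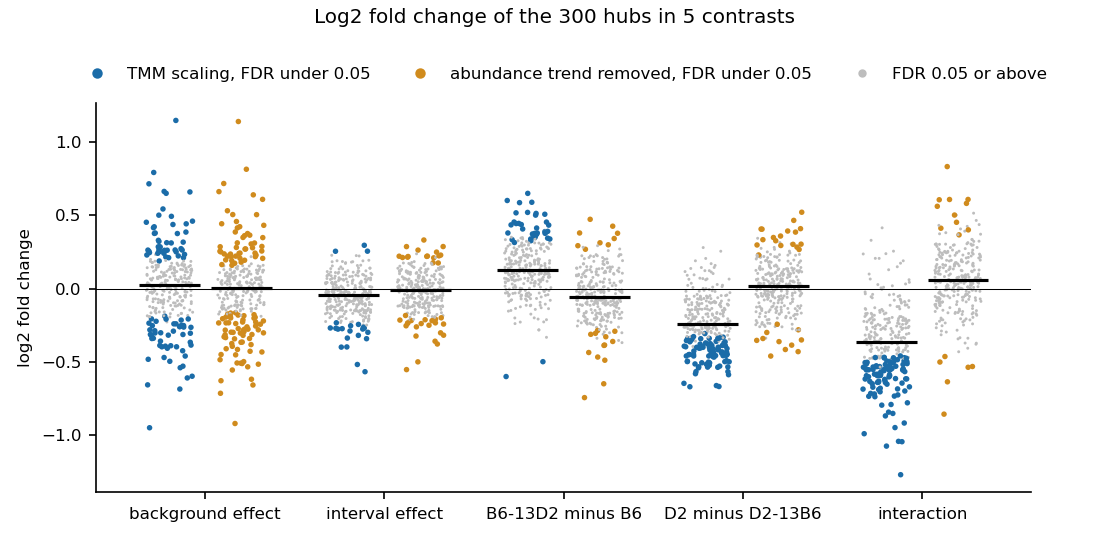
Points are the log2 fold changes of the 300 hubs in 5 contrasts, with TMM scaling (left of each pair) and with the abundance trend removed (right), large and coloured where the FDR is under 0.05, and bars are medians. Background and interval effects are centred near 0 in both, while the medians of D2 minus D2-13B6 and of the interaction move from -0.24 and -0.36 to 0.02 and 0.06.

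The hubs that the naming rule took in these 2 contrasts were called there with the abundance trend removed as well, while further differences of D2 minus D2-13B6 given below rest on TMM scaling alone. Removing the trend brought B6-13D2 minus B6 to 0.38 at the hubs at chr2:119825001-119865000 and of Atad2b and to 0.27 at Enah. It brought D2 minus D2-13B6 to -0.43 at the Hist2 hub, -0.39 in the body of Loxl1, -0.41 at Epha2 and -0.28 at Apobec3. The hub of the Hist2 histone cluster (chr3:96235001-96280000, 55 partners) had 313 and 337 CPM in B6, 478 and 505 in B6-13D2, 514 and 488 in D2 and 726 and 866 in D2-13B6. The congenic line exceeded its parental line in both backgrounds, by 0.60 in B6-13D2 over B6 (SE 0.12, FDR 0.000330) and with D2 minus D2-13B6 at -0.67 (SE 0.11, FDR 5.70e-06). The hub also rose by 0.66 with the D2 background (FDR 9.23e-11). Histone genes of a cluster are near-identical copies, so the assignment of reads within this hub is uncertain. The hub without a start at chr2:119825001-119865000 had 869 and 729 CPM in B6, 1181 and 1227 in B6-13D2, 888 and 898 in D2 and 1134 and 1222 in D2-13B6. All congenic libraries were above all parental ones, with 0.59 for B6-13D2 minus B6 (FDR 6.02e-05) and -0.40 for D2 minus D2-13B6 (FDR 0.00773), and 7 of 20 tested anchors within 250 kb were called higher in B6-13D2 with 0 lower. Also higher in B6-13D2 than in B6 were the hubs of Gm49436 on chromosome 15 (0.65, FDR 4.42e-05), of Atad2b, Mfsd2b and Ubxn2a (0.59, FDR 0.000104), and of Enah (0.52, FDR 0.000291).

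In D2 background, the hub in the body of Loxl1 (chr9:58265001-58290000) had 520 and 523 CPM in D2 and 816 and 816 in D2-13B6 (-0.65, FDR 1.13e-05). The hub of Epha2, an ephrin receptor gene, was lower in D2 by 0.67 on the log2 scale (495 and 454 against 695 and 815 CPM, FDR 1.80e-05). The hub of Apobec3, a cytidine deaminase gene of retrovirus restriction, had 815 and 765 CPM in D2 against 1177 and 1187 in D2-13B6 (-0.58, FDR 4.08e-05), while B6 and B6-13D2 had 802 ± 97 (SD, n = 2) and 804 ± 57. Among the hubs with the most partners, the Actn4 hub had 1409 and 1107 CPM in B6, 1234 and 1550 in B6-13D2, 1267 and 1262 in D2 and 1633 and 1704 in D2-13B6, with D2 minus D2-13B6 at -0.40 (FDR 0.00885). The Fnbp1 hub had 2040 and 1515 CPM in B6, 1729 and 1983 in B6-13D2, 1281 and 1302 in D2 and 1395 and 1455 in D2-13B6, and all D2-background libraries were below all B6-background libraries (log2 fold change -0.42, FDR 3.06e-06).

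Among hubs of pluripotency genes, 2 of the 7 were called for the background effect, both higher in D2 background, namely Esrrb (0.27, FDR 0.00516) and Etv5 (0.21, FDR 0.0232), with a median of 0.11 over the 7 against 0.02 over all hubs, of which 32.7% were called. The Esrrb hub had 673 and 599 CPM in B6, 551 and 692 in B6-13D2, 703 and 677 in D2 and 794 and 887 in D2-13B6. The Pou5f1 hub had 799 and 613 CPM in B6, 731 and 882 in B6-13D2, 639 and 653 in D2 and 833 and 868 in D2-13B6, with a background effect of -0.031 (SE 0.078, FDR 0.821). The Klf2 hub had 1307 and 1011 CPM in B6, 1081 and 1394 in B6-13D2, 1126 and 1103 in D2 and 1218 and 1419 in D2-13B6, and was called in none of the 5 contrasts. The Sall4 hub was called lower for the interval (-0.25, FDR 0.0428), with -0.44 in D2 background (FDR 0.00882) and -0.067 in B6 background (FDR 0.812), where B6 replicate 2 at 522 CPM lay below both B6-13D2 libraries. D2 minus D2-13B6 was called lower at Pou5f1, Sall4 and Tet1, 3 of the 7, and at 4 of the 5 hubs with signalling genes, against 27.7% of all hubs. Of the 5 hubs with signalling genes, that of Cdkn1a was higher and that of Pim1 lower in D2 background (-0.22, FDR 0.0221). The hubs of Arid1a and Ldb1 were called for neither background nor interval. Of the 7 hubs with ribosomal protein genes, the Rpl28 hub was called for the background and the Rpl7l1 hub for the interval (-0.27, FDR 0.0164). The latter was -0.54 in D2 background (FDR 0.000224) and -0.0037 in B6 background (FDR 0.993). Of 12 hubs with microRNA genes 1 was higher and 1 lower in D2 background.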

How the data were processed

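The authors deposited a table of whole-number read-pair counts per loop for all 8 libraries, not normalized, per the file headers and values. Per the submitters' processing notes the build was mm10 and the tools named were BWA 0.7.18, SAMtools 1.19.2 and edgeR 3.34.1. The loop caller is not given in the sources used here. Per-library files hold the same counts and were not used. Anchors were matched to GRCm38 and GENCODE M21, and 0 anchors passed a chromosome end. Promoters are RefSeq, GRCm38.p6.

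Counts were summed over all loops touching an anchor, with a loop inside 1 anchor counted once. Anchors with 10 or more counts, and loops with 5 or more, in at least 2 libraries were fitted with edgeR 4.0.16 in R 4.3.3 (TMM, quasi-likelihood, 1 mean per line, all 8 libraries in 1 fit). The Benjamini-Hochberg threshold was 0.05. The scripts were tested on simulated data. Read pairs carry no molecular identifiers and the replicates are technical, so tests measure technical spread. Alternatives were RLE factors, library totals, a scaling per chromosome, removal of the abundance trend, chromosome 11 left out, DESeq2 1.42.0, other count filters, the replicate number as a block, sums without contacts inside the anchor, and each library left out.

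The hubs and gene lists were chosen with earlier results of these data known. The text names the hubs among the 12 with most partners and the 3 on each side of the limit. For each contrast it names up to 5 called hubs per direction with the smallest FDR and no overlap between sides. It also names hubs of the listed genes, the 5 hubs without a start with most partners, and the leading hub loops. Others were named after their values were seen, namely the hubs of the windows shown and of chromosome 13. Results for some items are not reported here.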

Additional observations from a re-analysis of the deposited data

Results flagged for a closer look

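The effect of the D2 allele of the interval differed between backgrounds at 11 of the 23 hubs that the naming rule took for a called contrast, by the interaction term of the edgeR fit, on the log2 scale with TMM scaling. Over all 300 hubs it was called at 97 (32.3%), against 4.79% of all tested anchors, and at 17 hubs with the abundance trend removed. Of the 11, 9 were named for a contrast within 1 background, which is a part of the interaction, so their number is no independent result. The interaction was -1.27 at the Hist2 cluster hub, -1.04 at the hub of Atad2b, Mfsd2b and Ubxn2a, and -0.99 at the hub without a start at chr2:119825001-119865000. It was -0.95 at the hub in the body of Loxl1 (chr9:58265001-58290000), -0.84 at Epha2, -0.79 at Gm49436 and -0.72 at Enah. At Glo1 it was -0.64, at Apobec3 -0.58, at the hub at chr18:38365001-38390000 -0.52 and at 2410024N13Rik -0.49. The interaction was also called at further hubs named for their partners, their listed genes or the lack of a start, among them Cdkn1a (-0.70), Cbfa2t2 (-0.69), Pim1 (-0.59), Pou5f1 (-0.59), Tet1 (-0.55), Actn4 (-0.55), Rpl7l1 (-0.53), Cdc25a (-0.47), Etv5 (-0.47) and chr4:133895001-133915000 (-0.73). At the first 11 the congenic lines lay above what the background and interval effects add up to, as did the median hub, and the median changed sign once the abundance trend was removed. The part of scaling and depth in these 11 values was not tested beyond that.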

How the results depend on the processing

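The number of hubs called for the background, 98, was between 68 and 117 in all alternatives. For the interval it went from 22 to 38 with the abundance trend removed, 9 with DESeq2 and 12 with the replicate block, and to 5 to 52 with 1 library left out. For B6-13D2 minus B6 it went from 38 to 22 with the trend removed, 25 with the replicate block and 17 without contacts inside the anchor (17 to 47 with 1 library left out). For D2 minus D2-13B6 it went from 83 to 41 with library totals, 29 with the trend removed and 52 without contacts inside (11 to 106). For the interaction it went from 97 to 26, 17 and 43 under these and to 61 with the replicate block (21 to 140). Hub loops called for the interval went from 24 to 9 with DESeq2, 2 without a count filter, 40 with a stricter one and 12 with the replicate block (6 to 36). Hub loops called for the background went from 311 to 96 with DESeq2 and 106 without a filter (204 to 268). Replicate numbers did not pair the libraries, since deviations of same-numbered libraries correlated between -0.16 and 0.03, so the block has no basis in the labels. Partners per hub moved without thinning, to -1.13 for the interval and -3.58 for parental minus congenic. The 27 named hub results kept their direction in all 18 alternatives, and 25 or more stayed called in each of the 10 that keep all libraries. Counts of single loops were low, with a median of 6.40 CPM in loops from hubs to other anchors and 8.04 CPM between hubs.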
